A study of Oryza sativa Indica Group and Oryza sativa Japonica Group with 8 samples.

Results

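AnS-1, a natural thermosensitive genic male sterile (TGMS) mutant line of indica rice, was compared with its wild type, AnN, in young panicles at both growth temperatures. The members were the 4 indica arrays out of 8 in the series, taken by line and temperature from the sample labels, with 1 array each for AnN and AnS-1 at low and at high temperature. The lines had been grown in a growth cabinet at a day average of 23 °C (low or cool, the permissive temperature) or 28 °C (high or warm, the restrictive temperature), and the panicles covered the stages from the microspore mother cell to meiosis. The other 4 arrays held a japonica wild type, ZH11, and Os02g12290iL1, a japonica RNA interference (RNAi) line directed at Os02g12290, at the same temperatures. The design text groups AnS-1 and Os02g12290iL1 as tms5 and asks whether the ribonuclease RNase ZS1 takes part in mRNA metabolism. Os02g12290 itself was not analysed here.

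TGMS lines form fertile pollen in cool conditions and abort it in warm ones, which makes them useful as the seed parent in hybrid rice breeding. TMS5 encodes RNase ZS1, a short form of the RNase Z enzymes that trim the end of tRNA precursors. Pollen formation depends on the tapetum, the innermost anther wall layer, which feeds the meiocytes and microspores, makes the lipid and sporopollenin precursors of the pollen wall, and then dies.

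Each array carried 57258 probe sets, and 34317 were tested, the brighter 60% by mean log2 intensity. Values below are normalized intensities, linear units after quantile normalization of the 8 arrays. Differences are log2(intensity + 16) in AnS-1 minus AnN, and folds are taken on that scale, which understates changes of dim probe sets. With 1 array for each line and temperature there were no replicates, so an intensity carries no SD, a p-value reflects only the spread between these arrays, and precision is limited by their number. The labels do not say how many plants each array pooled.

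The 2 indica pairs did not differ to the same extent. The SD of the log2 difference over the tested probe sets was 0.60 for AnS-1 minus AnN at low temperature, against 0.28 at high temperature. The japonica pair, Os02g12290iL1 minus ZH11, had 0.27 and 0.35. The median difference of AnS-1 from AnN was 0.02 at low and 0.04 at high temperature. Deposited medians were 61.3 and 59.2 for AnN and AnS-1 at low temperature but 141 and 139 at high temperature, so each temperature had its own scale before normalization. The 8 floral organ identity genes used as markers were all bright, with summed intensities between 22315 and 26367 in the 4 indica arrays.

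The first question was which transcripts differed between AnS-1 and AnN at both temperatures. At both temperatures 113 of the 34317 tested probe sets (0.329%), from 83 annotated genes, were at least 2-fold lower in AnS-1, and 6 (0.0175%) were at least 2-fold higher. Taken singly, low temperature had 3.73% of the tested probe sets 2-fold lower and 2.28% higher, and high temperature 0.988% and 0.0845%. Lower at both were genes of jasmonate and oxylipin metabolism, class III chitinases, type 1 metallothioneins, the glyoxylate cycle enzyme ICL, and the pollen wall hydroxylase CYP703A3. Higher at both was MCM7, a subunit of the replicative DNA helicase. In bulk panicle RNA, fewer cells of a type and less RNA per cell cannot be told apart.

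The limma test over both temperatures, fitted on the 4 indica arrays with temperature as a block, called 0 probe sets (0.0% in either direction) at an adjusted p under 0.05. At an unadjusted p under 0.05 it gave 1817 probe sets, where chance alone gives 1716, and the smallest adjusted p was 0.694. Its only measure of spread is the disagreement of the 2 temperatures, with 1 residual degree of freedom. A fit of all 8 arrays also called 0. There the smallest adjusted p was 0.492, and 3339 had an unadjusted p under 0.05. The counts of probe sets 2-fold different at both temperatures are therefore descriptions, with no test.

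A separate limma fit of the 8 arrays tested AnS-1 against AnN within each temperature, with the spread taken from the disagreement of the japonica pairs. It assumes that the indica arrays vary like the japonica ones. Where the RNAi line's difference from ZH11 changed with temperature, that change enters the spread and makes the test harder to pass. At low temperature it called 905 probe sets higher (2.64%) and 1233 lower (3.59%), or 6.23% in all. At high temperature it called 0 (0.0%). The smallest adjusted p was 0.096, and 1603 had an unadjusted p under 0.05. The count at high temperature depended on the settings, since empirical Bayes with a trend and robust option called 47 higher and 143 lower, and median centring in place of quantile normalization called 96 higher and 602 lower. Of the 113 probe sets lower at both temperatures, 62 passed the test at low temperature, against 3.59% of all called lower. The same low temperature arrays chose the 113, so this count is no separate support for them.

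**Figure D1:**
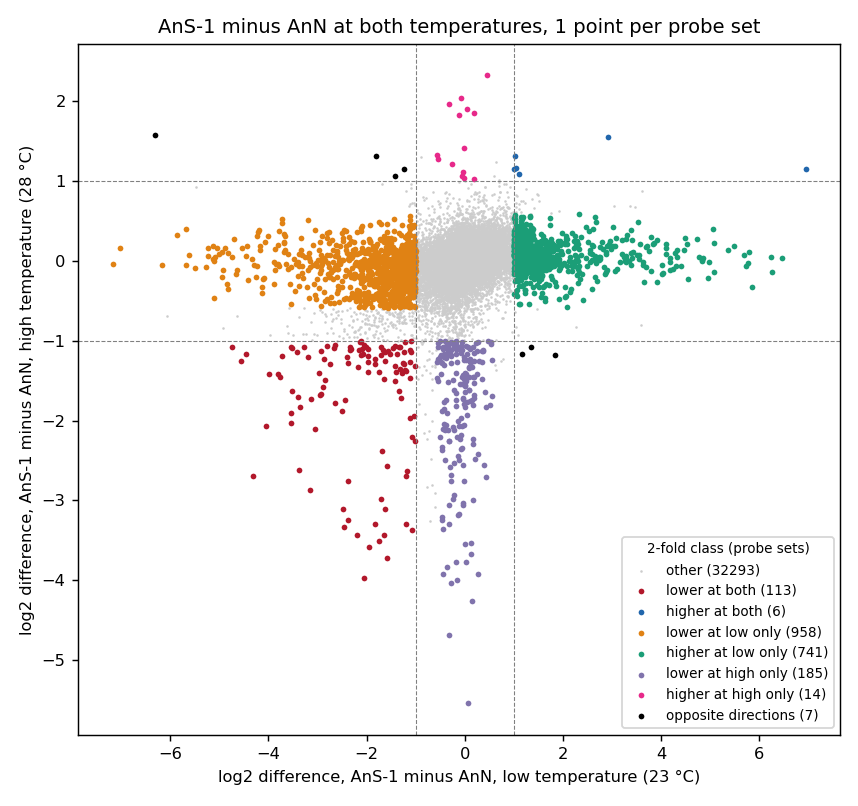
Each point is 1 of the 34317 tested probe sets, placed by its log2 difference of AnS-1 minus AnN at low temperature (x axis) and at high temperature (y axis), with dashed lines at 2-fold and colours for the 2-fold classes. The cloud is wider along the x axis (SD 0.60) than along the y axis (SD 0.28), and the 113 probe sets lower at both temperatures lie in the lower left corner.

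Jasmonate and related oxylipins are lipid-derived hormones of wounding, defence and stamen development. AOS3, an allene oxide synthase of the branch that leads to jasmonate, had intensities of 384 in AnN against 29.6 in AnS-1 in the cool, and 286 and 75.0 in the warm. AnS-1 was 8.76-fold and 3.32-fold lower, and AOS3 fell at low temperature (log2 difference -3.13 ± 0.24 SE, limma adjusted p = 0.00487) but missed the threshold at high temperature (adjusted p = 0.25). JAMYB, a MYB factor induced by jasmonate, had 667 in AnN against 58.7 in AnS-1 in the cool, and 668 and 280 in the warm. Both AnN arrays were alike and both AnS-1 arrays were below them, and JAMYB fell at low temperature (-3.19 ± 0.27 SE, limma adjusted p = 0.00623). PXG, a peroxygenase of the caleosin family, had 718 and 124 in the cool and 338 and 137 in the warm, so the AnS-1 arrays differed little from each other. OPR5, of the 12-oxophytodienoate reductase family, had 236 and 109 in the cool and 249 and 90.3 in the warm. Neither PXG nor OPR5 passed the test at low temperature (limma adjusted p = 0.123 and 0.0693).

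The jasmonate and oxylipin list held 34 tested probe sets. Of these 9 were at least 2-fold lower in the cool and 4 in the warm, against 3.73% and 0.988% of all tested probe sets. The same 4 were lower at both, against 0.329% of all. At either temperature 0 were 2-fold higher, against 2.28% of all in the cool and 0.0845% in the warm. At low temperature 6 fell and 0 rose in the limma test, against 3.59% and 2.64% of all tested probe sets. The list's median difference was -0.26 at low and -0.10 at high temperature, against 0.02 and 0.04 over all. JAZ proteins are repressors that hold back jasmonate responses. JAZ12 (-3.01), JAZ8 (-1.58) and JAZ7 (-1.10) fell there, while at high temperature their differences were -0.22, -0.64 and -0.23. LOX1.1, a lipoxygenase, fell at low temperature (-1.87) and had -0.44 at high temperature. The receptor genes COI1 (-0.16 and -0.02) and COI2 (0.13 and -0.01) stayed within a small range, as did the cyclase gene aoc (0.06 and 0.01).

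Chitinases cut the chitin of fungal walls, and several are also made in floral organs. Chib3H-a, a class III chitinase homologue, had intensities of 1288 in AnN against 161 in AnS-1 in the cool, and 2648 and 877 in the warm. Chib3H-h, of the same class, had 184 and 45.0 in the cool and 989 and 427 in the warm. For both genes AnS-1 was below AnN at each temperature, and each indica array at high temperature was above the array of the same line at low temperature. Chib3H-h fell at low temperature (-1.71 ± 0.25 SE, limma adjusted p = 0.0261) and Chib3H-a had an adjusted p of 0.176 there. All 13 tested probe sets of the chitinase and pathogenesis-related list were lower in AnS-1 at high temperature by sign, against 40.4% of all tested probe sets, with a median of -0.81 against 0.04. At low temperature 10 of the 13 were lower by sign, against 47.6% of all, and 3 fell in the test, against 3.59% of all, Chib3H-h among them. The other 2 were Chia1d (-1.87) and 1 of the 2 probe sets of Cht2 (-1.85), whose differences at high temperature were -0.48 and -0.75.

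Metallothioneins are small cysteine-rich proteins that bind metal ions. MT1B had 3588 in AnN against 292 in AnS-1 in the cool, and 636 and 158 in the warm, so AnS-1 was 11.7-fold and 3.74-fold lower. MT1A had 3468 and 765, then 2212 and 1009, which is 4.46-fold and 2.17-fold lower. Neither passed the test at low temperature (limma adjusted p = 0.0596 for MT1B and 0.252 for MT1A). The RNAi line's differences at low and high temperature, -1.71 and 0.48 for MT1B and -3.04 and -0.27 for MT1A, enter the spread. The type 2 gene MT2C had no such gap, as its 5 tested probe sets had differences between -0.03 and 0.12 at both temperatures.

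Single genes of metabolism and transport were also among those lower at both temperatures. ICL, the isocitrate lyase of the glyoxylate cycle, had 1292 in AnN against 108 in AnS-1 in the cool, and 210 and 53.0 in the warm, and it fell at low temperature (-3.40 ± 0.42 SE, limma adjusted p = 0.0185). GER2, of the germin-like family, had 1245 and 206 in the cool and 4055 and 1094 in the warm. MST3, a monosaccharide transporter, had 537 and 163, then 1627 and 729. Neither GER2 nor MST3 passed the test at low temperature (limma adjusted p = 0.16 and 0.294). AnN was brighter in the cool for ICL and in the warm for GER2 and MST3. The lectin gene salT had 9247 in AnN against 379 in AnS-1 in the cool, the largest fold among the named genes lower at both (23.5-fold), and 7328 and 3061 at high temperature (2.39-fold). Its second probe set, with 10223 and 892 and then 9493 and 4966, was 2-fold lower only at low temperature, and neither probe set passed the test there (limma adjusted p = 0.0697 and 0.216). Over the list of sugar metabolism and transport, which holds MST3, the 57 tested probe sets had medians of -0.06 and -0.03. MST3 was the 1 lower at both, against 0.329% of all tested probe sets.

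CYP703A3, the fatty acid hydroxylase of pollen wall synthesis in the tapetum, ran the other way in size. It had 1244 in AnN against 545 in AnS-1 in the cool, and 3647 and 573 in the warm, so the gap was 2.25-fold in the cool and 6.22-fold in the warm. Between the temperatures, high minus low, the level differed by 1.54 on the log2 scale in AnN and by 0.07 in AnS-1. The tests at low and high temperature gave limma adjusted p = 0.48 and 0.866, since the RNAi line had 4140 and 668 against 6078 and 5733 in ZH11 and its temperature gap enters the spread.

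**Figure D2:**
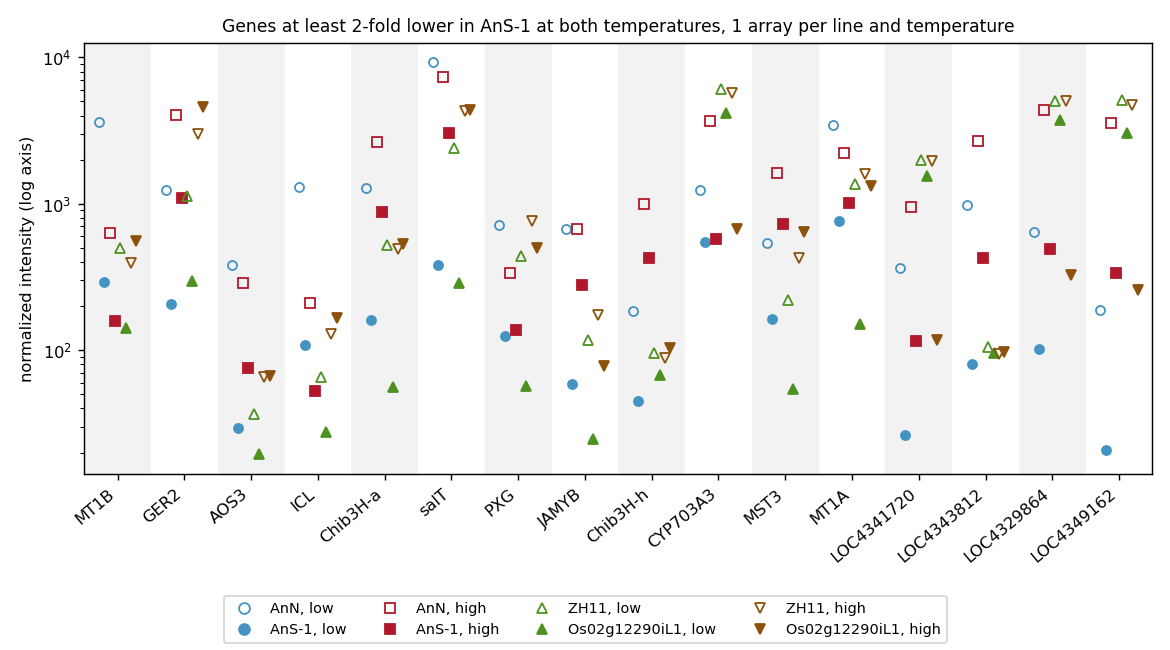
Normalized intensity (log axis) of the 12 named genes and 4 genes without a name that were at least 2-fold lower in AnS-1 at both temperatures, with open symbols for the wild types and filled symbols for AnS-1 and Os02g12290iL1, 1 array per symbol. MT1B goes from 3588 in AnN to 292 in AnS-1 at low temperature, while LOC4349162 has its lowest level, 20.8, in AnS-1 in the cool and 3040 in Os02g12290iL1.

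Genes with no informative name held the largest gaps at both temperatures. LOC4349162 had 187 in AnN against 20.8 in AnS-1 in the cool, and 3574 and 339 in the warm, 5.51-fold and 10.1-fold lower. LOC4329864 had 641 and 102, then 4342 and 488. LOC4341720 had 362 and 26.2, then 943 and 115. These 3 genes were also lower in Os02g12290iL1 than in ZH11 at high temperature, by -4.12, -3.88 and -3.87 on the log2 scale, but by -0.75, -0.43 and -0.36 at low temperature. LOC4343812 had 982 and 80.3, then 2701 and 428, and fell at low temperature (-3.37 ± 0.16 SE, limma adjusted p = 0.00132). All 4 japonica arrays lay between 94.6 and 105 for it, and the SE rests on these arrays and holds no spread of the indica values. A second probe set of the gene had 277 and 224, then 154 and 111, so the probe sets disagree. LOC4329864 had 2 further probe sets, with 135 and 132, then 1073 and 117 on 1 and 498 and 455, then 192 and 212 on the other, so only the first shared the gap at high temperature and neither the one at low temperature.

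The 113 probe sets lower at both temperatures were divided by the level in AnN alone. AnN was at least 2-fold brighter at high temperature for 45, at least 2-fold brighter at low temperature for 17, and within 2-fold for 51. In the 45, median intensities were 328 in AnN against 76.6 in AnS-1 in the cool, and 1660 and 418 in the warm. In the 17, they were 1401 and 136 in the cool, and 338 and 122 in the warm. In the 51, they were 667 and 124, then 626 and 267. The gap was larger at high temperature in the first set (median differences -1.59 and -2.21) and larger at low temperature in the second (-3.04 and -1.41), and the same AnN arrays both divide the sets and enter these differences.

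The RNAi line did not enter the 2-fold rule that chose these probe sets. Its arrays did enter the normalization and the intensity filter, which used all 8. Of the 45, 26 were also at least 2-fold lower in Os02g12290iL1 than in ZH11 at high temperature and 11 at low temperature, against 1.03% and 0.816% of all tested probe sets. Of the 17, 0 were lower in the RNAi line at high temperature and 9 at low temperature. Of the 51, 11 were lower at high and 23 at low temperature. The first set had medians of 1819 in ZH11 against 885 in the RNAi line in the cool, and 1904 and 325 in the warm, so in japonica the larger gap was also in the warm. Over the 113, 43 were 2-fold lower in the RNAi line at low temperature, 37 at high temperature, 10 at both and 43 at neither. The 10 shared ones are 8.85% of the 113 and 7.63% of the 131 probe sets lower at both temperatures in the RNAi line.

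**Figure D3:**
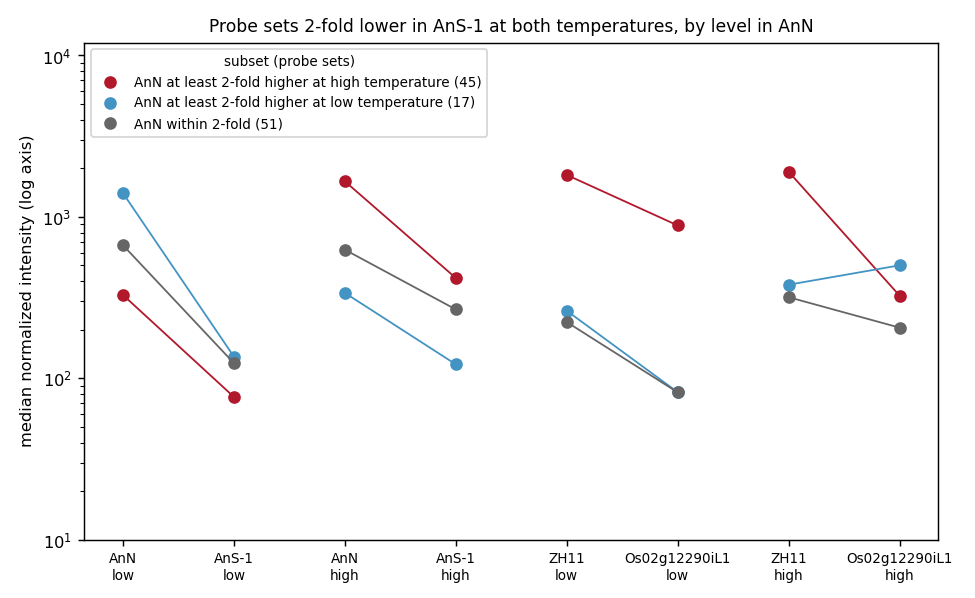
Median normalized intensity (log axis) on each of the 8 arrays for the 113 probe sets lower in AnS-1 at both temperatures, divided by the level in AnN into 45 brighter at high temperature, 17 brighter at low temperature and 51 within 2-fold, with lines joining a wild type to the line compared with it. The 45 drop from 1904 in ZH11 to 325 in Os02g12290iL1 at high temperature, while the 17 have 380 and 501 there.

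The limma contrast of the AnS-1 difference minus the RNAi line difference, each over both temperatures, called 0 probe sets (0.0%). The smallest adjusted p was 0.092, and 1162 had an unadjusted p under 0.05. It called 2 higher and 4 lower with the trend and robust option, and 3 lower with median centring. For GER2 the RNAi difference was -1.87 at low and 0.60 at high temperature, against -2.51 and -1.87 in AnS-1. For MT1A it was -3.04 and -0.27, against -2.16 and -1.12. Whether these lines differ for single genes was not resolved by this test.

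Only 6 probe sets were at least 2-fold higher in AnS-1 at both temperatures. MCM7 had 466 in AnN against 976 in AnS-1 in the cool, and 185 and 434 in the warm (log2 differences 1.04 and 1.17), with a limma adjusted p of 0.0584 at low temperature. The japonica arrays lay between 517 and 688. LOC4325354 had 215 and 448, then 108 and 260, and rose at low temperature (limma adjusted p = 0.033). LOC4329393 rose at low temperature on both of its probe sets, 1 with 155 and 333, then 178 and 467, the other with 2.68 in AnN at low temperature, near the bottom of the scale. A probe set with no gene in the tables had 22.2 in AnN against 4709 in AnS-1 in the cool, and 769 and 1731 in the warm, with 4448 to 4771 in japonica.

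Replication genes were mostly higher by sign in AnS-1. Of 35 tested probe sets for DNA replication factors, 32 were higher in AnS-1 at low temperature by sign, 33 at high temperature and 30 at both. The shares of all tested probe sets were 52.4% at low and 59.5% at high temperature, and 12375 of the 34317 were higher at both. The median difference was 0.71 at low and 0.28 at high temperature, against 0.02 and 0.04 over all tested probe sets. At low temperature 8 rose and 0 fell in the limma test, against 2.64% and 3.59% of all. MCM3, another helicase subunit, rose from 520 in AnN to 1506 in AnS-1 at low temperature (limma adjusted p = 0.0207), and had 388 and 662 at high temperature. RPA2A, of the single-stranded DNA binding complex RPA, rose from 677 to 1914 (limma adjusted p = 0.0132), and had 451 and 820 at high temperature. ORC1, of the origin recognition complex, rose from 206 to 489 (limma adjusted p = 0.021), and had 120 and 213 at high temperature. In the RNAi line the list's median difference was 0.11 at low and -0.12 at high temperature.

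Meiosis genes were also higher by sign, 15 of 18 tested probe sets at low temperature, 17 at high temperature and 14 at both. The shares of all were the same 52.4% and 59.5%, with 12375 of 34317 at both. The medians of the list were 0.41 and 0.18. In the test at low temperature 2 of the 18 rose, against 2.64% of all. CRC1, an ATPase needed for crossovers and for the synaptonemal complex, rose from 144 to 363 at low temperature (limma adjusted p = 0.0177) and had 72.8 and 150 at high temperature. SPO11-2, of the family that makes meiotic DNA breaks, rose from 84.5 to 171 on its dimmest probe set (limma adjusted p = 0.0382), while its other 2 probe sets had differences of 0.28 and 0.40. The Argonaute gene MEL1 had 1233 and 2046 in the cool and 556 and 1029 in the warm, without passing the test (limma adjusted p = 0.0689). DMC1, the meiotic recombinase, had 413 and 352, then 179 and 187, so the members did not all move together. Kinesins had 28 of 35 higher by sign at low and 29 at high temperature, against 52.4% and 59.5% of all, and 4 rose at low temperature, against 2.64%. Ribosomal protein probe sets had 34 of 36 and 32 of 36 higher by sign, against the same shares of all, with medians of 0.24 and 0.10 and 0 calls.

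Marker sums moved with these groups, and their part in the results was not tested. The 3 dividing cell markers summed to 5009 in AnN against 8227 in AnS-1 in the cool, and 2490 and 3006 in the warm. MCM2 and PCNA are also members of the replication list, so they count in both. In the warm the rise lay in PCNA (1026 and 1401) and MCM2 (472 and 619), while CYCB1-1 changed little (993 and 987). The 4 meiocyte markers found of 7 summed to 3187 and 4295, then 1523 and 1992. In the warm that rise lay in MEL1 (556 and 1029). PAIR1 (115 and 121), PAIR2 (672 and 655) and DMC1 (179 and 187) changed little there. In the cool DMC1 was the one lower in AnS-1 (413 and 352). The 5 tapetum markers found of 7 summed to 5737 and 4790 in the cool, and 15923 and 5423 in the warm. In the warm the drop lay mostly in C6 (7438 and 708) and CYP703A3 (3647 and 573), while TDR had 2346 and 1983, EAT1 1336 and 726, and MSP1, a receptor kinase of early anther development, was the higher in AnS-1 (1155 and 1433). The 3 green tissue markers found of 5 summed to 9043 and 5434 in the cool, and 5914 and 6030 in the warm.

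The next question was which differences were present at one temperature only, meaning at least 2-fold at that temperature and under 1.5-fold at the other. At low temperature only, 958 probe sets (2.79%) were lower and 741 (2.16%) higher in AnS-1. At high temperature only, 185 (0.539%) were lower and 14 (0.0408%) higher. For 136 of the 185, AnN was at least 2-fold brighter at high than at low temperature. For 101 of the 185 the brighter array of the pair reached 100 units at both temperatures. Where the pair in the cool was dim, a difference there could be missed, so this class need not be particular to high temperature. The test of the difference itself, high minus low, called 552 probe sets (1.61%), 307 with a more positive difference at high temperature (0.895%) and 245 with a more negative one (0.714%). Its spread also came from the japonica pairs and not from the indica arrays. Of the 552, 483 were 2-fold different at low temperature only and 26 at high temperature only. Across the tested probe sets the differences at the 2 temperatures had a Pearson correlation of 0.27 and a Spearman correlation of 0.29, given as a description, since the probe sets share their arrays.

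Among genes lower at low temperature only, C4, an anther gene of the lipid transfer family, had 3611 in AnN against 374 in AnS-1 in the cool, and 8432 and 6731 in the warm. The 2 differences themselves differed by 2.89 ± 0.21 SE (limma adjusted p = 0.00963). OsC3H2, a CCCH zinc finger gene, had 971 and 92.6 in the cool and 1161 and 1193 in the warm, but another of its probe sets had 1499 and 1786, then 2825 and 2619. TAC1, which controls tiller angle, had 326 and 37.2, then 574 and 569. On these named probe sets the AnS-1 array at low temperature was the lowest of the 4. BGLU26, a beta-glucosidase, had 4199 and 698, then 1199 and 1197, so there the low temperature arrays lay on either side of the warm ones. FIB, a tryptophan aminotransferase of auxin synthesis, had 580 and 121, then 385 and 415. CML16, a calmodulin-like gene, had 266 and 45.5 in the cool against 4226 and 4498 at high temperature, and its difference between temperatures missed the threshold (limma adjusted p = 0.0544).

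Photosynthesis genes were mostly lower by sign at low temperature. Of 17 tested photosynthesis probe sets 16 were lower by sign at low temperature (median -0.63) and 9 at high temperature (median -0.02), against 47.6% and 40.4% of all. PORA, a protochlorophyllide reductase, fell from 1492 to 656 at low temperature (limma adjusted p = 0.0384) and had 698 and 689 at high temperature; it was the one call among the 17, against 3.59% of all called lower. CAB2R, a light-harvesting chlorophyll protein, had 5231 and 2108, then 1236 and 1390. The 3 green tissue markers went from 9043 to 5434 at low temperature. CAB2R and RBCS are among them and are also list members, so this sum is no separate support. Phenylpropanoid and flavonoid probe sets were lower by sign in 21 of 22 at low temperature (median -0.53), against 47.6% of all, and 2 of them fell, against 3.59% of all. They were 1 for PAL, the entry enzyme of the pathway, from 700 to 222 and 1 for CAD8C, a cinnamyl alcohol dehydrogenase, from 1330 to 704. Aquaporins had 4 of 23 that fell at low temperature, against 3.59% of all. They were the plasma membrane channels PIP2-2 (1173 and 401), PIP2-7 (1428 and 602) and PIP2-5 (485 and 202) and the silicon transporter Lsi6 (1223 and 606). Their differences at high temperature lay between -0.28 and 0.07.

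Genes higher at low temperature only included transcription factors and a small heat shock protein. HSP18.0, the small heat shock protein, had 13.0 in AnN against 265 in AnS-1 in the cool, and 228 and 229 in the warm, with 542 to 688 in japonica. The AnN array at low temperature was the one that stood apart, and its level there was near the bottom of the scale. Other probe sets of HSP18.0 had differences of 0.65 and 0.18 in the cool. TF1, a homeodomain gene, had 448 and 1611, then 603 and 627, so there the AnS-1 array at low temperature was the high one. APO2, the rice LEAFY homologue that keeps the inflorescence meristem, had 73.7 and 292, then 72.6 and 81.0, and rose at low temperature (limma adjusted p = 0.0136), while the difference between temperatures missed the threshold (adjusted p = 0.0848). IPK2, an inositol polyphosphate kinase, had 101 and 406, then 120 and 119. ZIP3, a zinc transporter, had 126 and 371, then 327 and 319.

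**Figure D4:**
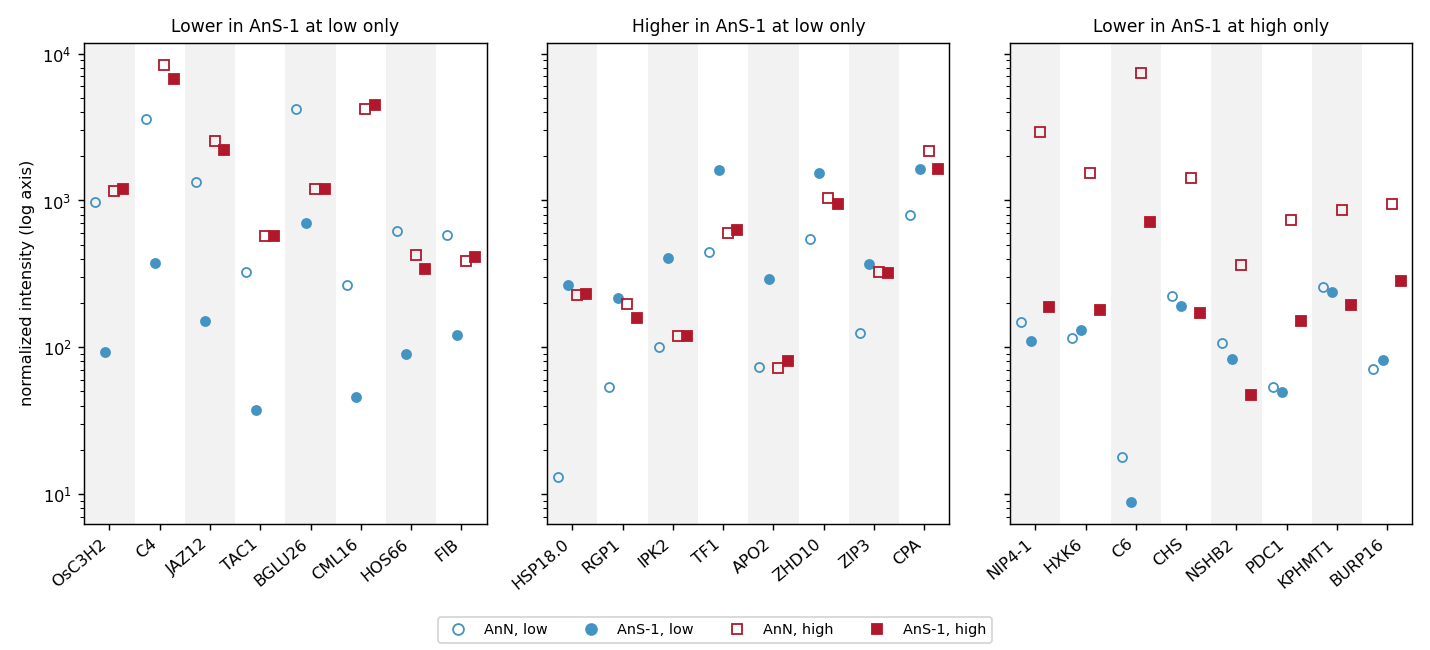
Normalized intensity (log axis) on the 4 indica arrays of the 8 named genes in each of 3 classes, with circles for low and squares for high temperature, open for AnN and filled for AnS-1. In the left and middle panels the squares of a gene lie closer together than its circles, as for TAC1 (574 and 569), and in the right panel the circles lie closer than the squares, as for PDC1 (53.3 and 49.7), with a visible gap between the circles of C6 (17.8 and 8.85).

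AnN was within 2-fold between the temperatures for 623 of the 958 probe sets lower at low temperature only, and for 459 of the 741 higher ones. The RNAi line was not 2-fold lower at either temperature for 924 of the 958 (96.5%, against 98.5% of all tested probe sets), and not 2-fold higher at either for 732 of the 741 (98.8%, against 99.3% of all). Counting both directions, it was within 2-fold at both temperatures for 93.8% of the 958 and 98.0% of the 741, against 97.9% of all. Of the 958, 26 were 2-fold higher in the RNAi line at high temperature and 15 were 2-fold lower, against 201 and 355 of all 34317. For the 741 the shares are near those of all probe sets, and say little about the members. For the 958 the share within 2-fold was below that of all, though most of them were within 2-fold in the RNAi line. The reason was not tested.

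Some genes lower at low temperature only lay side by side along the chromosomes of the reference annotation. These 608 genes were 3.90% of the tested genes and formed 42 adjacent pairs, so the next tested gene was in the same class for 6.91% of them, and the longest run held 6 genes in a row among those tested, from LOC4325211 to LOC4325217. LOC4325217 fell from 1509 in AnN to 30.2 in AnS-1 at low temperature, while the high temperature arrays had 1106 and 1238. LOC4325216 fell from 450 to 11.3 and had 126 and 106 at high temperature. LOC4325213 fell from 504 to 54.1 and had 1175 and 1202 at high temperature, with 63.4 to 79.5 in japonica. In this run the AnS-1 array at low temperature was below both high temperature arrays for every gene. The 374 genes higher at low temperature only were 2.40% of the tested genes and formed 25 adjacent pairs (6.68%), with a longest run of 4. The 83 genes lower at both temperatures were 0.532% and formed 2 pairs (2.41%). The labels do not say whether the low temperature plants shared their genetic background with the high temperature plants of the same line. This was not tested, and it bears on every difference seen at low temperature only.

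At high temperature, where the mutant is male sterile, the lower genes included products of the tapetum. C6, an anther lipid transfer protein, had 7438 in AnN against 708 in AnS-1 at high temperature, and 17.8 and 8.85 in the cool. Its low temperature levels were near the bottom of the scale, so a difference in the cool could not be measured. NIP4-1, an aquaporin of the nodulin-like family, had 2923 and 189 at high temperature against 148 and 111 in the cool. HXK6, a hexokinase, had 1539 and 180 against 115 and 131. For all 3 genes AnN was bright only in the warm, and in AnS-1 the warm level stayed far below it. The differences between temperatures were -3.16 ± 0.39 SE for HXK6 (limma adjusted p = 0.0379), -3.48 ± 1.22 SE for NIP4-1 (adjusted p = 0.364) and -2.92 ± 0.73 SE for C6 (adjusted p = 0.203).

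Other genes lower in the warm did not all share their pattern with the RNAi line. CHS, annotated as a chalcone synthase, had 1412 and 171 at high temperature and 225 and 192 in the cool on its named probe set, and its other probe sets had differences between -0.40 and -0.07 at high temperature. NSHB2, a nonsymbiotic haemoglobin, had 362 and 47.2 at high temperature and 107 and 83.6 in the cool, with a difference between temperatures of -2.28 ± 0.24 SE (limma adjusted p = 0.0235). The japonica arrays lay between 85.1 and 103 for NSHB2. PDC1, a pyruvate decarboxylase of fermentation, had 740 and 151 at high temperature, but was higher in the RNAi line than in ZH11 at both temperatures (1.37 and 2.30). PTC1, a regulator of tapetal cell death, had 428 and 116 at high temperature and 13.4 and 9.86 in the cool. In contrast TDR, an earlier tapetum regulator, had 2346 and 1983 at high temperature and 1891 and 1116 in the cool, and the 9 tapetum regulators had a median difference of 0.01 at high temperature.

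All 7 probe sets of pollen wall and tapetum products were lower at high temperature by sign, against 40.4% of all, with a median of -0.71, and 5 were lower at low temperature, against 47.6% of all, with a median of -0.25. In the test at low temperature C4 fell, and RTS, an anther gene of the tapetum, rose from 47.5 to 114 (limma adjusted p = 0.0273). Of the 185 probe sets lower at high temperature only, 108 were also at least 2-fold lower in the RNAi line at high temperature and 74 at low temperature, against 1.03% and 0.816% of all, and 64 at both. HXK6 had 1464 in ZH11 against 291 in Os02g12290iL1 in the cool, and 1264 and 144 in the warm. NIP4-1 had 3267 and 373, then 3187 and 43.7. In AnN these 2 genes were dim at low temperature, whereas in ZH11 they were bright at both.

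Few probe sets ran the other way. MT2B was at least 2-fold higher at high temperature only on 1 probe set, with 3597 in AnN against 14160 in AnS-1, but its 2 other tested probe sets had 5272 and 5292 and 5045 and 4887, so the gene as a whole was not measured as higher. Among the 7 probe sets (0.0204%) that were 2-fold different in opposite directions, MT2A had 66.3 and 277 in the cool and 169 and 66.2 in the warm, a difference between temperatures of -3.01 ± 0.21 SE (limma adjusted p = 0.00893). Its brighter probe set had 1085 and 1255, then 1228 and 810. LOC4323858, chosen after its values were seen, had 2930 in AnN against 21.3 in AnS-1 in the cool but 646 and 1953 at high temperature, with 6444 to 8501 in japonica.

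**Figure D5:**
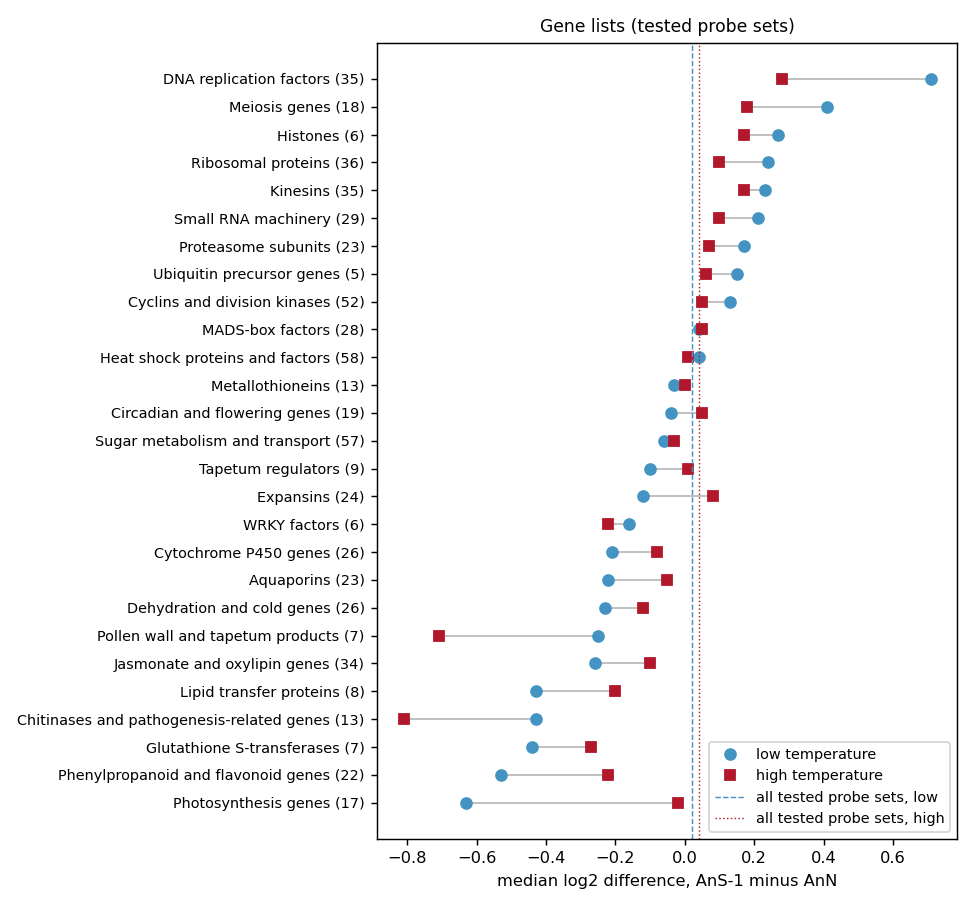
Median log2 difference of AnS-1 minus AnN (x axis) in each of 27 gene lists, with the number of tested probe sets in brackets, blue circles for low and red squares for high temperature, and vertical lines at the medians of all tested probe sets (0.02 and 0.04). DNA replication factors lie at the top (0.71 and 0.28), photosynthesis genes at the bottom (-0.63 and -0.02), and pollen wall and tapetum products (-0.25 and -0.71) and chitinases (-0.43 and -0.81) lie further left at high than at low temperature.

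Other lists had medians on either side of those of all probe sets. For the calls given below, 3.59% of all tested probe sets were called lower at low temperature and 2.64% higher. A single call in a short list says little about that list. Glutathione S-transferases had -0.44 and -0.27 over 7 tested probe sets, and GSTU6 was the 1 that fell at low temperature, from 471 to 94.1 (limma adjusted p = 0.00661). Lipid transfer proteins had -0.43 and -0.20 over 8, with C4 the 1 that fell. Histones had 0.27 and 0.17 over 6, and CenH3, the centromeric histone, rose at low temperature from 653 to 1482 (limma adjusted p = 0.0203). Ubiquitin precursor genes, among them the ubiquitin-L40 fusions, were higher by sign in 5 of 5 at both temperatures. The shares of all were 52.4% at low and 59.5% at high temperature. These amounts were small (medians 0.15 and 0.06), with 0 calls. The 28 MADS-box probe sets had medians of 0.04 and 0.05, and the 58 of heat shock proteins and factors 0.04 and 0.01, with 1 and 3 calls at low temperature, where 6.23% of all were called. Cytochrome P450 genes were lower by sign in 23 of 26 at low temperature and 18 at high temperature, against 47.6% and 40.4% of all. Their medians were -0.21 and -0.08. AOS3 was the one that fell in the test, a count near the 3.59% of all. The 26 dehydration and cold probe sets had medians of -0.23 and -0.12. NAC048 was the one that fell at low temperature, from 1600 to 389, with 1835 and 1186 at high temperature. DREB2A, a dehydration-responsive factor, rose at low temperature (0.86, limma adjusted p = 0.0493). With 1 call each way in 26, these counts are near the shares of all.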

How the data were processed

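RNA from young panicles was isolated with Trizol followed by a Qiagen column, then converted to biotin-labelled cRNA, per the labels' protocols. The deposited files hold a linear intensity for each probe set. The submitters' processing notes list RMA and Expression Console, with versions not given in the sources used here. Since RMA output is normally log2, the linear unit rests on the range of the values. The authors' 3 array sets (indica low, indica high, japonica) lay on different scales.

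The 8 arrays were quantile normalized on the linear scale, 64 control probe sets were dropped, log2(intensity + 16) was taken, and the upper 60% by mean (34317) entered limma 3.58.1 (R 4.3.3), whose tests were two-sided and Benjamini-Hochberg adjusted over all tested. The fits were also run on data simulated from their own designs and variance, which cannot check whether indica arrays vary like japonica ones. A probe table named 1 gene for 22436 probe sets (17905 genes, 2458 with informative names). All value columns were used. Gene order came from a RefSeq table of assembly ASM3414082v1, and no coordinates are printed.

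Each AnS-1 array was set against the AnN array of its temperature. The fit within each temperature, and of their difference, had 1 residual degree of freedom, and the line contrast 2. Named genes had 1 gene and an informative name, an intensity of at least 100 in the brighter array, and the largest differences: up to 12 per direction at both temperatures, 8 per class at one temperature, 4 opposite, 3 per list, and 4 without a name. Other list members are named as examples, chosen after their values were seen. The members, gene lists and rules were chosen with earlier results of these data known. Alternatives covered normalization, offset, filter, probe sets per gene, empirical Bayes options, fold threshold, the block and leaving out arrays.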

Additional observations from a re-analysis of the deposited data

Results flagged for a closer look

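By the limma test of high minus low in the AnS-1 minus AnN difference (log2, adjusted over all tested probe sets), 16 named genes were called. Of these, 7 were more positive at high temperature because AnS-1 was lower at low temperature only: OsC3H2 (3.22, adjusted p = 0.0152), C4 (2.89, 0.00963), TAC1 (2.67, 0.014), BGLU26 (2.56, 0.0132), HOS66, a homeobox gene (2.27, 0.0262), FIB (2.22, 0.0184) and the D-type cyclin CYCD5-1 (1.87, 0.0304).

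Another 5 were more negative at high temperature because AnS-1 was higher at low temperature only. They were HSP18.0 (-3.27, adjusted p = 0.0118), RGP1 (-2.03, 0.0235), IPK2 (-1.86, 0.0437), TF1 (-1.75, 0.0361) and ZHD10, a zinc finger homeodomain gene (-1.61, 0.0487). HXK6 (-3.16, 0.0379) and NSHB2 (-2.28, 0.0235) were lower at high temperature only. MT2B (2.30, 0.0293) was higher at high temperature on 1 probe set, and MT2A (-3.01, 0.00893) had opposite directions. Other probe sets of OsC3H2, RGP1, HSP18.0, MT2B and MT2A did not show differences of this size. The spread in this test came from the japonica arrays alone, with 1 residual degree of freedom, and held no spread of the indica values. In japonica OsC3H2 (24.7 to 45.1), TAC1 (39.6 to 50.8) and NSHB2 (85.1 to 103) were dim, so their adjusted p-values rest on the spread of dim signals.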

How the results depend on the processing

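Counts of calls moved with the settings, and the cause was not tested. In the order low temperature higher and lower, high temperature higher and lower, then high minus low positive and negative, they were 2752, 2711, 96, 602, 1233 and 1123 with median centring, and 2227, 2130, 47, 143, 790 and 620 with the trend and robust option. Without the intensity filter they were 1688, 1976, 1, 36, 615 and 544. At high temperature, lower calls were 18 with the indica arrays normalized alone, 20 without normalization and 2 with the filter on the indica arrays. With the upper 40%, low temperature gave 561 and 792 and the contrast between temperatures 184 and 138, where fewer probe sets were tested; with 1 probe set per gene these were 315, 566, 64 and 40. The negative contrast gave 369 with the indica arrays normalized alone. Leaving out single arrays in the 8-array fit gave 0 to 905 higher and 0 to 1233 lower over both temperatures, the upper values without the AnN or the AnS-1 array at high temperature, where only the low temperature pair remains. The contrast with the RNAi line then gave 0 to 444 and 0 to 578, and otherwise 2 and 4 (trend and robust option) or 3 lower (median centring).

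At thresholds of 1.5-fold and 3-fold the classes held 414 and 31 (lower at both), 69 and 0 (higher at both), 2215 and 440 (lower, low only), 2443 and 263 (higher, low only), 430 and 89 (lower, high only), 100 and 6 (higher, high only) and 45 and 0 (opposite). With 1 probe set per gene they held 3 (higher at both), 560, 326, 102 and 7. An offset of 64 gave 2 higher at both, 488 higher at low only and 3 opposite, and the upper 40% gave 105 lower at high only.

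Of 3021 values of named genes under alternatives, 2753 kept direction and side of the threshold, 31 lost the call, 237 gained one and 0 reversed. The labels carry no replicate numbers, so the arrays were paired by temperature alone, the block of the fit over both temperatures. Without that block 0 probe sets were called as well. Dim levels, as of C6 in the cool, limit what can be compared.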

Other observations

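Single probe sets with the widest gaps at low temperature differed in which array stood apart. The probe set with no gene that was higher in AnS-1 at both temperatures had 22.2 in AnN at low temperature against 769 to 4771 on the 7 other arrays. LOC4323858 had 21.3 in AnS-1 at low temperature against 646 to 8501 on the others. LOC4326388, lower at high temperature only, had 1140 in AnN against 8.74 in AnS-1 at high temperature, 20.0 and 21.7 at low temperature, and 1537 in ZH11 at low temperature against 52.9 at high temperature. LOC4324669, higher at high temperature only, had 544 in AnN against 2010 in AnS-1 at high temperature, and 2618 to 3829 in japonica.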
